A study of Mus musculus with 15 samples.

Results

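Ceruloplasmin and 9 other genes of iron handling were followed in 21EM15 cells, an immortalized mouse lens epithelial line, grown flat or as spheroids. The members were taken by symbol from a list of 10 genes, *Cp*, *Slc40a1*, *Fth1*, *Ftl1*, *Tfrc*, *Slc39a14*, *Steap3*, *Ireb2*, *Aco1* and *Hmox1*, and all 10 were found among the 11677 genes measured in the cultures and among the 11299 genes measured in the spheroid regions. Sequencing of mRNA 3′ ends covered 4 samples of wild-type cells in 2D culture, 4 of 3D spheroids, 4 of the internal and 3 of the external region of spheroids cut out by laser capture microdissection. The spheroids were grown for 10 days in round-bottom wells coated with Polyhema, which keeps cells from attaching, and each 3D or region sample came from many pooled spheroids. The 2D cells were harvested from dishes that were not yet fully confluent. No sample carried a mutation or a treatment, and the cultures and the regions were extracted with different kits. The study removed a further external sample because it differed from the other 3 in a principal component analysis. The data used here do not hold it, so the spread between external samples leaves it out.

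Iron enters most cells bound to transferrin, through the transferrin receptor (*Tfrc*), and is reduced in the endosome by *Steap3*. *Slc39a14* encodes ZIP14, which takes up iron that is not bound to transferrin, along with manganese and zinc. Inside the cell iron is stored in ferritin, a shell of heavy (*Fth1*) and light (*Ftl1*) chains, and *Hmox1* encodes heme oxygenase 1, which frees iron from heme. Iron leaves the cell through ferroportin (*Slc40a1*), the only known exporter of free iron in mammals, while ceruloplasmin, a copper-carrying ferroxidase, oxidizes the exported iron so that transferrin can bind it. The iron regulatory proteins encoded by *Aco1* and *Ireb2* bind hairpins called iron-responsive elements in iron-poor cells, which blocks translation when the hairpin is before the coding sequence and protects the mRNA when it is after it. In the lens, unbound iron can promote oxidative damage, and lens epithelial cells are known to make both ferritin and ceruloplasmin.

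The hairpins are shown because 4 members carry the letters of elements that the proteins of *Aco1* and *Ireb2* can bind. GENCODE vM21 transcripts were searched on the sense strand for CNNNNNCAGTGN followed by 5 bases that can pair with the 5 bases before the loop. The letters were found in the 5′ UTR of *Slc40a1*, *Fth1* and *Ftl1* and at 4 places in the 3′ UTR of *Tfrc*, and in no UTR of the other 6 members. Of 11382 coding genes searched, 20 (0.176%) had these letters in a 5′ UTR and 89 (0.782%) in a 3′ UTR. A match is a description of the letters and not a measured binding site. Each hairpin is given 5′ to 3′ on the transcript strand with its position on GRCm38, in lower case with the 6 bases of the loop in capitals.
*Slc40a1*, 5′ UTR, chr1:45925465-45925493, minus strand: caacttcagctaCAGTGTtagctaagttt
*Fth1*, 5′ UTR, chr19:9982732-9982760, plus strand: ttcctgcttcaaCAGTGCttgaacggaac
*Ftl1*, 5′ UTR, chr7:45459779-45459807, minus strand: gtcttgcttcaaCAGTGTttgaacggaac
*Tfrc*, 3′ UTR, chr16:32631219-32631247, plus strand: aattatcggaagCAGTGCcttccataatt
*Tfrc*, 3′ UTR, chr16:32631598-32631626, plus strand: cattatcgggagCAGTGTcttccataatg
*Tfrc*, 3′ UTR, chr16:32631663-32631691, plus strand: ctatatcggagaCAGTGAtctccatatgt
*Tfrc*, 3′ UTR, chr16:32631710-32631738, plus strand: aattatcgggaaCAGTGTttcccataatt

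The deposited values are log2 CPM, the log2 of counts scaled to library size (CPM) after a prior count of 2 reads on average had been added, and whole reads could be recovered from them. The listed genes held between 7305053 and 9362587 reads per culture sample and between 4044230 and 11702504 per region sample. The floor of detection was set at 3 reads, worth between 0.312 and 0.409 CPM in the cultures and between 0.248 and 0.802 CPM in the regions, which covers counting error only. Of 8 lens genes used to check the cell type, 6 were listed in both tables, with *Six3* at 3982 reads or more in every culture sample. The epithelial markers *Foxe3* and *Cdh1* were not listed, and *Cryab*, *Prox1* and *Maf* are also genes of lens fiber cells, so that the list does not mark the epithelium alone. Of 7 further fiber cell markers, among them *Cryaa*, *Mip* and *Bfsp2*, 0 were listed in the cultures and only *Bfsp1* in the regions, at 40 reads or fewer. None of the erythroid and hepatocyte markers was listed in either table, and of the 6 macrophage markers only *Cd68* was listed in the cultures, at 15 reads or fewer. The samples are bulk RNA, so that fewer cells expressing a gene and less RNA per cell cannot be told apart.

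To ask how the mRNA of these genes differs between the cultures, the 3D samples were compared with the 2D samples. Time in culture and density of growth differed along with the 3D form, and their parts cannot be told apart. Both genes of the export step rose in 3D, *Slc40a1* by 4.8 and *Cp* by 3.84 on the log2 scale, while no member fell past the same thresholds. A call required an adjusted p below 0.01 together with a log2 fold change beyond 1 in either direction (limma, Benjamini-Hochberg over all genes). On this rule, 2 of 10 members were called as higher in 3D, beside 2.92% of all genes, and 0 of 10 as lower, beside 1.51% of all genes (3 members were lower at an unadjusted p under 0.05). At an adjusted p under 0.05 with no limit on the fold, 3 members were higher (*Cp*, *Slc40a1* and *Fth1*; 9.74% of all genes) and 2 were lower (*Tfrc* and *Ireb2*; 9.25% of all genes). The median log2 fold change of the 10 members was 0.54, against -0.03 for all genes tested.

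*Cp* (chromosome 3, 19957054 to 20009145, plus strand) had 5.77, 5.35, 2.66 and 4.86 log2 CPM in the 2D replicates 1 to 4 and 8.18, 8.35, 8.93 and 8.54 log2 CPM in the 3D replicates 1 to 4. These values correspond to between 52 and 520 reads in 2D and between 2267 and 3766 reads in 3D, and the 2D replicate 3 was the lowest sample. Every 3D sample was therefore above every 2D sample. The 2D replicate 3 also stood apart as a library, with 190 genes at 0 reads, against 21, 41 and 68 in the 2D replicates 1, 2 and 4. Of the members, 3 had all 3D samples higher (*Cp*, *Slc40a1* and *Fth1*; 12% of all genes) and 1 had them all lower (*Ireb2*; 12% of all genes), which makes 24% of all genes in either direction. The fitted difference on the log2 scale was 3.84 (95% interval 2.64 to 5.04, standard error (SE) 0.54, limma adjusted p = 0.00183). Without the 2D replicate 3 it was 3.17, and it was still called. Without the 3D replicate 3 or 4, its adjusted p lay just above the threshold, at 0.0101 or less, and it was not called. The sum of the 6 lens genes was also higher in 3D, with a range of 849.5 to 1247 CPM of listed reads in 2D and of 1436 to 1813 in 3D. For 4 of them (*Pax6*, *Six3*, *Prox1* and *Maf*) every 3D sample was above every 2D sample. The sum of 5 listed fibroblast markers ranged from 72.57 to 231 CPM in 2D and from 454.7 to 675.3 in 3D, where *Dcn* and *Col3a1* had all 3D samples higher, *Col1a2* had them all lower and the other 2 overlapped. The part of these genes in the result was not tested. Ceruloplasmin is made in a secreted and a membrane-anchored form by alternative splicing, and counts per gene do not part these forms.

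*Slc40a1* (chromosome 1, 45908068 to 45926523, minus strand) was close to the limit of detection in 2D, with 5, 2, 0 and 9 reads in the replicates 1 to 4, and had 138, 49, 163 and 222 reads in the 3D replicates 1 to 4. The lowest 3D sample was the replicate 2 and lay above the highest 2D sample. The mean in CPM was 18.1 ± 9.01 (SD) for the 4 spheroid samples and 0.433 ± 0.398 for the 4 flat cultures. Between the groups, the log2 fold change was 4.8 (SE 0.58, limma adjusted p = 0.000883), a value that the prior count understates because of the few 2D reads. It was called with each of the 8 samples left out in turn, but with limma's voom on the recovered reads the adjusted p was 0.0171.

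**Figure D1:**
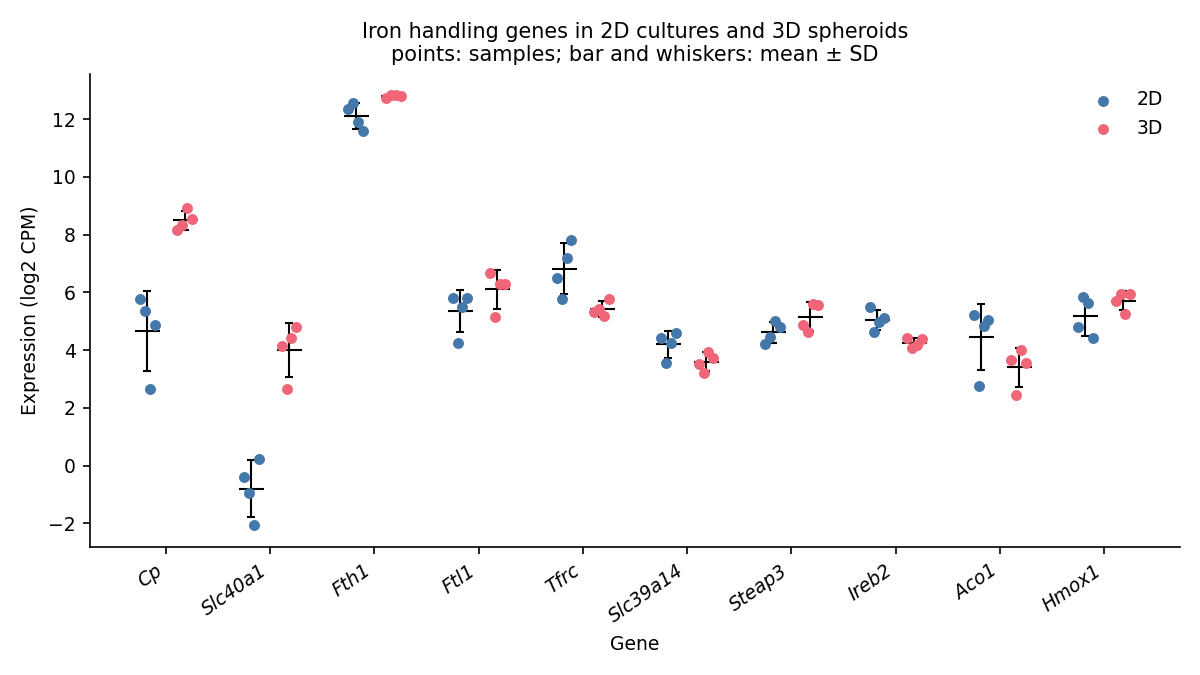
Expression in log2 CPM (vertical axis) of the 10 iron handling genes (horizontal axis) in the 4 samples of 2D culture (blue) and the 4 samples of 3D spheroids (red), with points for samples and bars for the mean ± SD. *Cp* and *Slc40a1* show the widest gaps between the groups, and *Fth1* is the most abundant member with 3D values between 12.75 and 12.83.

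The ferritin heavy chain was by far the most abundant member. *Fth1* (chromosome 19, 9980598 to 9985098, plus strand) ranked 11 of 11677 genes by mean level in the cultures, on a scale of 3′ end reads, which do not grow with transcript length. It had 12.35, 12.57, 11.91 and 11.60 log2 CPM in the 2D replicates 1 to 4 and 12.75, 12.82, 12.83 and 12.80 in the 3D replicates 1 to 4. The groups did not overlap, and the 3D samples lay within a much narrower range (SD 0.04) than the 2D samples (SD 0.44). On the log2 scale the fold change was 0.69 (SE 0.21, limma adjusted p = 0.0449), short of the fold threshold. The adjusted p was above 0.05 with any of 6 of the 8 samples left out (all but the 2D replicates 1 and 2), between 0.0867 and 0.11, with quantile normalization (0.0868, log2 fold change 0.44) and without a variance trend (0.0628). *Ftl1*, the light chain (chromosome 7, 45457944 to 45459884, minus strand), had between 4.26 and 5.81 log2 CPM in 2D and between 5.14 and 6.68 in 3D, and its log2 fold change of 0.75 (95% interval -0.11 to 1.62) did not pass the test (adjusted p = 0.201). Without the 2D replicate 2 it was 0.39. The lowest *Ftl1* sample was the replicate 2 in both groups.

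The level of *Ftl1* is uncertain, since the authors counted uniquely mapped reads only. Of the 50-base stretches in the last 300 bases of its coding transcripts, 79.2% also occur in transcripts of other genes, among them the pseudogenes *Ftl1-ps1*, *Ftl1-ps2* and *Ftl2-ps*. For *Fth1* the share was 9.65%, all shared with *Gm6977*, and for the other 8 members it was 0%. The reads were sequenced to more than 50 bases and then trimmed, so these shares are not the shares of reads lost. *Fth1* was between 5.79 and 8.31 log2 units above *Ftl1* within the 2D samples, a distance that cannot be read as a ratio of the chains for this reason.

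Of the uptake genes, *Tfrc* (chromosome 16, 32608920 to 32632794, plus strand) had 6.51, 5.76, 7.18 and 7.81 log2 CPM in the 2D replicates 1 to 4 and 5.31, 5.44, 5.17 and 5.78 in the 3D replicates 1 to 4. The groups overlapped, because the 2D replicate 2 lay just below the 3D replicate 4. Its log2 fold change of -1.39 (SE 0.36) had an adjusted p of 0.0242 and was not called. Without the 2D replicate 2 the log2 fold change was -1.74 (adjusted p = 0.00192 from limma) and the gene was called. Without the 2D replicate 3 or the 3D replicate 1, 2 or 3, its adjusted p was between 0.0507 and 0.0732. *Slc39a14* (chromosome 14, 70303469 to 70351425, minus strand) had between 3.55 and 4.61 log2 CPM in 2D and between 3.19 and 3.95 in 3D, a log2 fold change of -0.61 (95% interval -1.19 to -0.02, adjusted p = 0.136). *Steap3*, the endosomal reductase (chromosome 1, 120190757 to 120272705, minus strand), had between 4.2 and 5.02 log2 CPM in 2D and between 4.61 and 5.61 in 3D, with a log2 fold change of 0.54 (95% interval -0.05 to 1.13, adjusted p = 0.182).

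Both genes of the iron regulatory proteins had lower mean levels in 3D, and neither was called. *Ireb2* (chromosome 9, 54863789 to 54912530, plus strand), which encodes IRP2, had 5.49, 4.62, 4.98 and 5.10 log2 CPM in the 2D replicates 1 to 4 and 4.4, 4.08, 4.18 and 4.37 in the 3D replicates 1 to 4. All 3D samples lay below all 2D samples, with a log2 fold change of -0.79 (SE 0.20, limma adjusted p = 0.022), and the adjusted p was above 0.05 in 3 of the 8 fits that lacked a sample, at most 0.0648. *Aco1* (chromosome 4, 40143081 to 40198338, plus strand), which encodes IRP1, the cytosolic aconitase, had 5.23, 2.76, 4.83 and 5.05 log2 CPM in 2D and 3.66, 2.44, 4.0 and 3.56 in 3D. The replicate 2 was the lowest sample in both groups, with 48 and 42 reads. The log2 fold change of *Aco1* was -1.06 with an adjusted p of 0.186, and without the 2D replicate 2 it was -1.62 and was called as lower (adjusted p = 0.00749 from limma). *Hmox1* (chromosome 8, 75093621 to 75100589, plus strand) had between 4.42 and 5.85 log2 CPM in 2D and between 5.24 and 5.96 in 3D, and its log2 fold change of 0.53 (95% interval -0.15 to 1.21) did not pass the test (adjusted p = 0.251). Without the 2D replicate 4 it was 0.28.

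The order of the members changed between the cultures. In 2D, *Tfrc* was second to *Fth1* and *Cp* was sixth, although the values of neighbours from *Tfrc* down to *Slc39a14* overlapped. In 3D, *Cp* was second, above all values of *Ftl1* and below all values of *Fth1*. *Slc40a1* was last in 2D, below every value of *Slc39a14*, and eighth in 3D, where its values overlapped with those of *Ireb2* and *Slc39a14*.

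The same genes were then compared between the internal and external regions, to ask where in the spheroid they are expressed. *Slc40a1* and *Steap3* rose in the internal region, by 3.02 and 1.44 on the log2 scale, and no member fell past the thresholds. Thus 2 of 10 members were called as higher in the internal region, beside 3.27% of all genes, and 0 of 10 as lower, beside 4.35% of all genes (2 members were lower at an unadjusted p under 0.05). At an adjusted p under 0.05 with no limit on the fold, 3 members were higher (*Slc40a1*, *Steap3* and *Cp*; 9.58% of all genes) and 2 were lower (*Tfrc* and *Hmox1*; 12.1% of all genes). The median log2 fold change of the members was -0.09, against 0.04 for all genes tested.

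*Slc40a1* had 5.62, 6.05, 5.81 and 4.93 log2 CPM in the internal replicates 1 to 4 and 3.17, 2.47 and 2.11 in the external replicates 1 to 3. The external samples held 53, 24 and 15 reads, and the internal samples between 244 and 573. The groups did not overlap, which held for 3 members with higher internal samples (*Slc40a1*, *Steap3* and *Cp*; 13.5% of all genes) and 1 with lower ones (*Tfrc*; 15.4% of all genes), beside 29% of all genes in either direction. The log2 fold change was 3.02 (95% interval 2.33 to 3.71, SE 0.33, limma adjusted p = 5.73e-07). The call held with each of the 7 samples left out in turn, with values of at least 2.79.

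*Steap3* had 6.20, 5.83, 6.04 and 6.04 log2 CPM in the internal replicates 1 to 4 and 4.37, 4.71 and 4.68 in the external replicates 1 to 3. Its samples were tight in both regions, with an SD of 0.15 and 0.19, and the groups did not overlap. The fitted difference on the log2 scale was 1.44 (SE 0.21, limma adjusted p = 2.78e-05), and leaving out any of the 7 samples kept the call. The sum of the 6 lens genes ranged from 1409 to 1743 CPM of listed reads internally and from 873.6 to 939.1 externally, with *Pax6*, *Cryab*, *Prox1* and *Maf* higher in every internal sample. Their part in these results was not tested. The listed macrophage markers *Cd68* and *Csf1r* together reached at most 8.537 CPM in an internal and 9.521 CPM in an external sample. Of the 4 fibroblast markers listed in the regions, *Col3a1* was higher in every internal sample (7.42 to 8.01 against 5.48 to 6.96 log2 CPM), *Col1a1* was lower (4.05 to 4.84 against 5.54 to 6.52 log2 CPM), and the other 2 overlapped. The part of these markers was not tested either.

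*Cp* was abundant in both regions. It had 8.43, 9.09, 9.10 and 9.03 log2 CPM in the internal replicates 1 to 4 and 8.43, 7.84 and 8.17 in the external replicates 1 to 3. The internal replicate 1 lay only just above the external replicate 1, so that the groups were apart by less than the rounding of these values. Between the groups, the log2 fold change was 0.77 (SE 0.17, 95% interval 0.42 to 1.11) with an adjusted p of 0.00171 from limma, past the p threshold and short of the fold threshold. Without the internal replicate 1 it was 0.93, and without the external replicate 2 it was 0.61 with an adjusted p of 0.0303. The limma adjusted p was 0.0796 without a variance trend and 0.084 without both samples numbered 2.

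**Figure D2:**
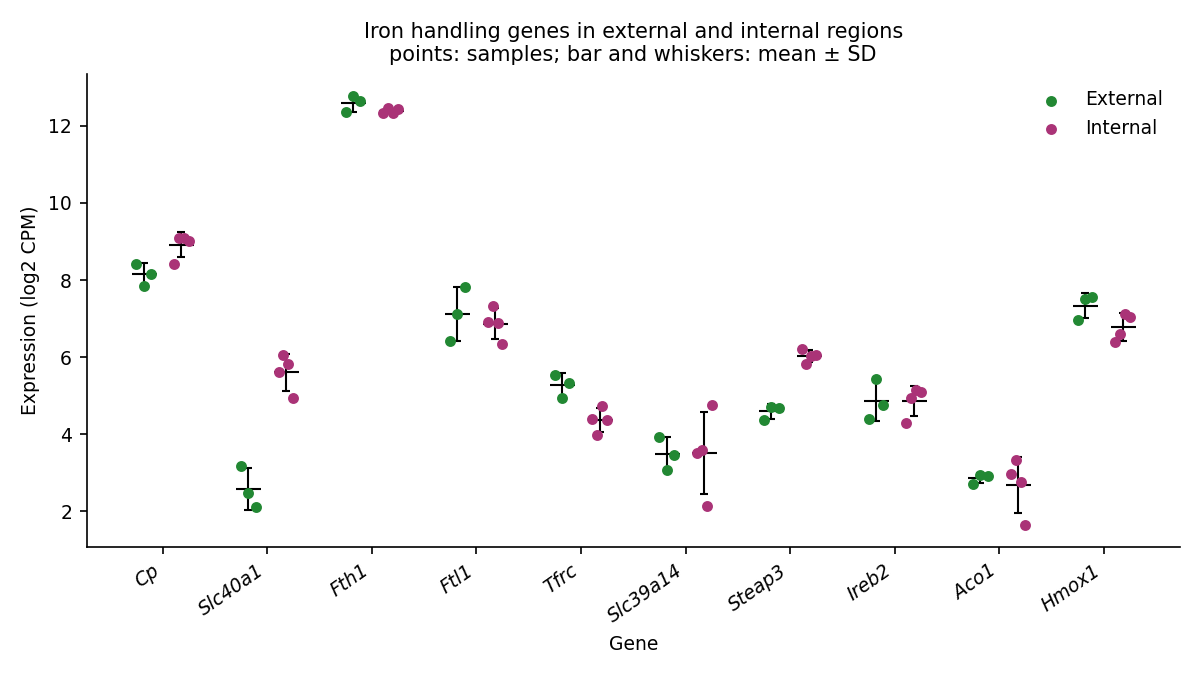
Expression in log2 CPM (vertical axis) of the 10 iron handling genes (horizontal axis) in the 3 external (green) and 4 internal (purple) region samples, with points for samples and bars for the mean ± SD. *Slc40a1* and *Steap3* lie apart between the regions, *Tfrc* is lower in the internal samples, and *Fth1* and *Ftl1* overlap.

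*Tfrc* had 4.38, 3.98, 4.74 and 4.36 log2 CPM in the internal replicates 1 to 4 and 5.54, 4.93 and 5.34 in the external replicates 1 to 3. Every internal sample was below every external sample. On the log2 scale the fold change was -0.91 (SE 0.27, limma adjusted p = 0.0173), which was not called. Without the internal replicate 2 or the external replicate 1 or 3, the adjusted p was between 0.0568 and 0.0878. *Hmox1* had between 6.38 and 7.12 log2 CPM internally and between 6.96 and 7.55 externally, and the groups overlapped. Its log2 fold change was -0.56 (SE 0.19, limma adjusted p = 0.0401). It was above 0.05 under 10 of 18 alternatives, at 0.193 without a variance trend and between 0.104 and 0.172 without the internal replicate 1 or 2 or the external replicate 2 or 3.

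For the other 5 members the regions overlapped and no difference was detectable with these samples. The log2 fold change was -0.20 for *Fth1* (95% interval -0.49 to 0.10) and -0.25 for *Ftl1* (95% interval -0.76 to 0.25). *Fth1* had between 12.33 and 12.45 log2 CPM internally and between 12.35 and 12.77 externally. Both genes of the iron regulatory proteins had close means, with a log2 fold change of 0.01 for *Ireb2* (95% interval -0.58 to 0.61) and -0.19 for *Aco1* (95% interval -1.21 to 0.83). *Slc39a14* had a log2 fold change of 0.02 (95% interval -0.97 to 1.0) and the widest spread within a region. It went from 2.15 log2 CPM (18 reads) in the internal replicate 3 to 4.75 log2 CPM (322 reads) in the internal replicate 4. The direction of *Ireb2*, *Slc39a14*, *Aco1* and *Ftl1* flipped under alternative settings. The pseudogene *Ftl1-ps1* was listed in the region data with between 9 and 37 reads per sample.

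The comparisons of cultures and of regions use different samples and separate normalizations, and whether the fold changes differ between them was not tested. Side by side, the log2 fold changes of 3D minus 2D and of internal minus external were 4.8 and 3.02 for *Slc40a1*, 3.84 and 0.77 for *Cp* and -1.39 and -0.91 for *Tfrc*. For *Steap3* they were 0.54 and 1.44, for *Fth1* 0.69 and -0.20, and for *Hmox1* 0.53 and -0.56. In the exact permutation test of the group means, two-sided, *Cp*, *Slc40a1*, *Fth1* and *Ireb2* in the cultures and *Slc40a1*, *Tfrc* and *Steap3* in the regions reached p = 0.0286, the smallest p that 4 samples against 4 or against 3 allow. For *Cp* in the regions the exact permutation p was 0.0571. These 20 p-values were not adjusted.

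**Figure D3:**
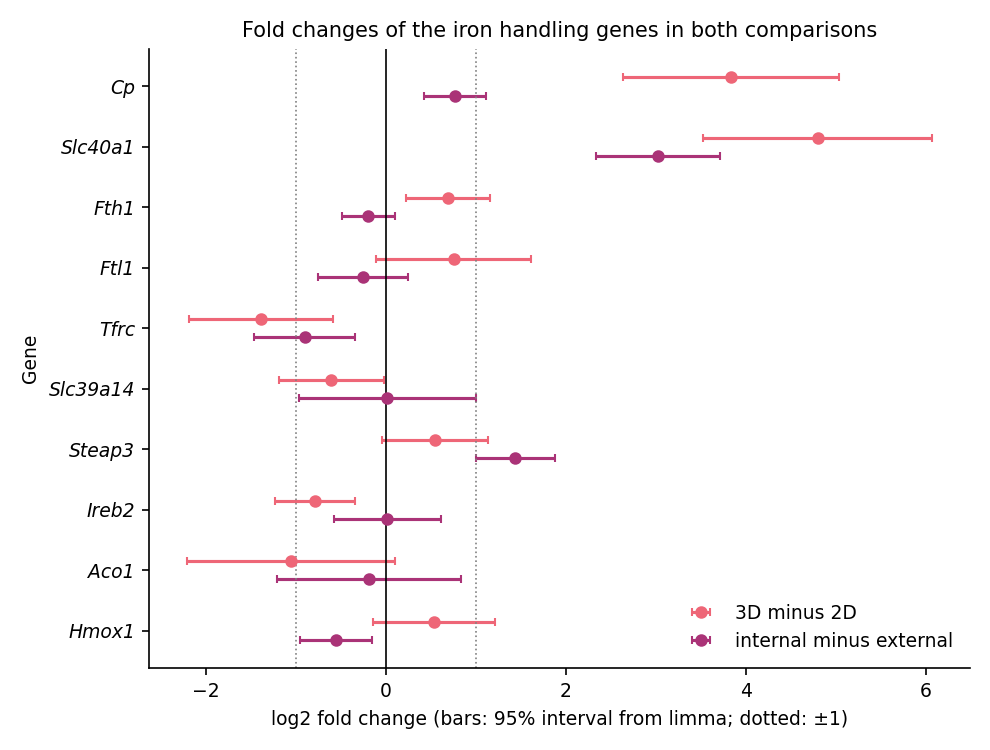
Log2 fold change (horizontal axis) of each of the 10 genes (vertical axis) for 3D minus 2D (red) and internal minus external (purple), with 95% intervals from limma and dotted lines at a log2 fold change of 1 in either direction. *Slc40a1* is highest in both comparisons, with 4.8 and 3.02, and *Tfrc* is below 0 in both.

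The mRNA of the exporter and of the uptake receptor can also be compared within a sample, where the scaling of the library cancels. Protein and the transport of iron were not measured. In 2D, *Slc40a1* had 5, 2, 0 and 9 reads beside 868, 394, 1240 and 2156 reads of *Tfrc* in the replicates 1 to 4. The replicates 2 and 3 were under the floor of 3 reads, so that their differences are set by the prior count. In the 2D replicates 1 and 4 the difference of *Slc40a1* and *Tfrc* was -6.90 and -7.58 log2 units, and in 3D it was between -2.78 and -0.75. It was between -3.23 and -2.37 in the external region and between 0.57 and 2.07 in the internal region. The receptor thus had more 3′ end reads than the exporter in all 2D, 3D and external samples, and fewer in all 4 internal samples. In reads, the internal replicate 2 had 573 for *Slc40a1* and 134 for *Tfrc*, while the external replicate 3 had 15 and 150. The pair was chosen after the values had been seen, so that these differences are a description with no test.

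**Figure D4:**
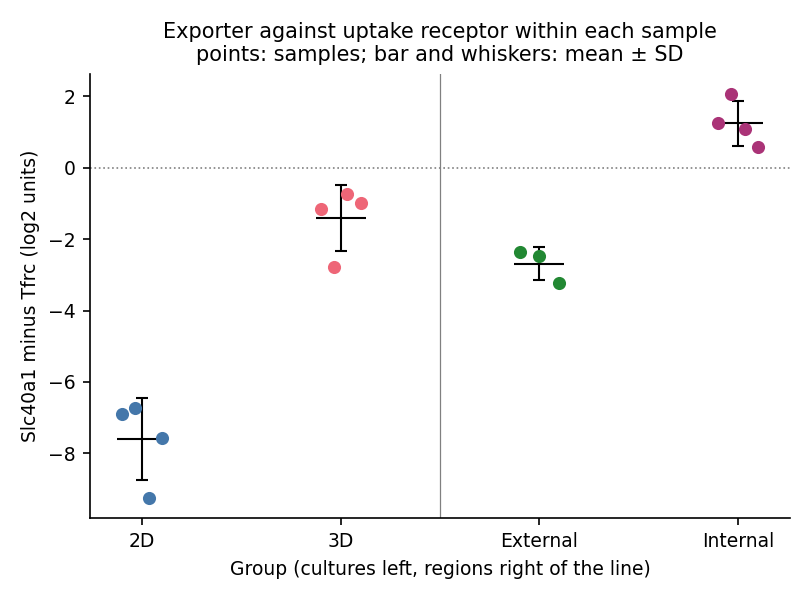
Difference of *Slc40a1* and *Tfrc* in log2 units (vertical axis) within each sample of the 4 groups (horizontal axis), with points for samples and bars for the mean ± SD. The internal samples lie above 0, between 0.57 and 2.07, and all other samples lie below it, where the points of the 2D replicates 2 and 3, with 2 and 0 *Slc40a1* reads, and with them the 2D mean, are set by the prior count.

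The genes whose pattern was most like that of *Cp* were looked for among 4303 genes that averaged 5 log2 CPM or more in both data sets. Of the 9 other members, this left only *Fth1*, *Ftl1* and *Hmox1* to be compared. Likeness was measured as the lower of the Pearson correlations with *Cp* over the 8 culture samples and over the 7 region samples, as a description with no test, since the samples share their groups. The highest values were found for *Aatk* (0.93), *Plscr3* (0.92), *Nfe2l1* (0.92), *Kifap3* (0.92) and *Pkig* (0.91). *Nfe2l1*, a transcription factor of the NRF family, averaged 8.0 ± 0.22 log2 CPM over the 4 samples of 3D spheroids and 6.79 ± 0.26 over the 4 of 2D culture (SD). In the regions it had 8.15 ± 0.21 log2 CPM in the internal (n = 4) and 7.32 ± 0.35 in the external samples (n = 3).

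A wider list of 82 genes of iron, heme, iron-sulfur cluster and copper handling was examined, of which 65 were in each data set. In 3D against 2D, 0 of the 65 were called in either direction by limma, while 7 were higher and 14 lower at an unadjusted p under 0.05. At an adjusted p under 0.05, 2 were higher (3.08% of the list, against 9.74% of all genes) and 5 were lower (7.69%, against 9.25%), and their median log2 fold change of -0.03 was that of all genes. The higher genes were *Slc22a17*, a receptor for lipocalin 2, with a log2 fold change of 1.98, and *Slc31a2*, a copper transporter, with 0.66. Among the lower genes were *Glrx5* (-0.84) and *Cisd1* (-0.60) of the iron-sulfur group and the iron chaperone gene *Pcbp1* (-0.41). *Atp7a*, which carries copper to secreted copper enzymes, had a log2 fold change of 0.05 (95% interval -0.62 to 0.72). With any sample left out, *Glrx5* stayed at an adjusted p under 0.05, whereas *Slc22a17*, *Slc31a2*, *Pcbp1* and *Cisd1* were above it in at least 1 fit. These genes, apart from *Glrx5*, were named after their values were seen.

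Between the regions, 1 gene of the wider list was called as lower in the internal region and none as higher by limma (13 were lower and 7 higher at an unadjusted p under 0.05), while 3 were higher and 10 lower at an adjusted p under 0.05 (4.62% and 15.4% of the list, against 9.58% and 12.1% of all genes). *Glrx5*, a mitochondrial glutaredoxin that hands on iron-sulfur clusters, ranged from 6.39 to 6.95 log2 CPM internally and from 7.68 to 8.18 externally. Its log2 fold change was -1.19 (SE 0.17, limma adjusted p = 1.72e-05), and the call was lost without a variance trend. Of the 22 measured genes of the iron-sulfur group, 4 were among the lower ones (18.2%, against 15.4% of the wider list and 12.1% of all genes), *Glrx5*, *Ciapin1* (-0.93), *Hspa9* (-0.72) and *Nubp1* (-0.77). In the smaller groups, 2 of 7 copper supply genes were lower, the copper chaperone gene *Atox1* (-0.50) and the metallothionein gene *Mt2* (-0.62), as were 2 of 10 uptake and reductase genes (*Steap1* and *Slc25a37*) and 1 of 13 heme genes (*Blvrb*). *Atp7a* had a log2 fold change of -0.01 between the regions (95% interval -0.93 to 0.90). The higher genes were *Flvcr1*, a heme exporter (1.25), the endocytic receptor gene *Lrp1* (0.75) and *Nfe2l2*, which encodes NRF2 (0.39). *Steap1* had 0.07, 3.16, 3.90 and 3.27 log2 CPM in the internal replicates 1 to 4 and 4.28, 4.68 and 5.24 in the external replicates 1 to 3. Its log2 fold change was -2.13 (limma adjusted p = 0.0129). Without the internal replicate 1, the lowest sample, it was -1.28 (limma adjusted p = 0.0168). With any sample left out, *Glrx5*, *Ciapin1*, *Hspa9*, *Atox1* and *Lrp1* stayed at an adjusted p under 0.05, whereas the other 8 were above it in at least 1 fit. Without the external replicate 3, *Mt2* was at -0.33, and without the external replicate 2, *Slc25a37* was at -0.44. The genes of this comparison other than *Glrx5* were named after their values were seen.

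**Figure D5:**
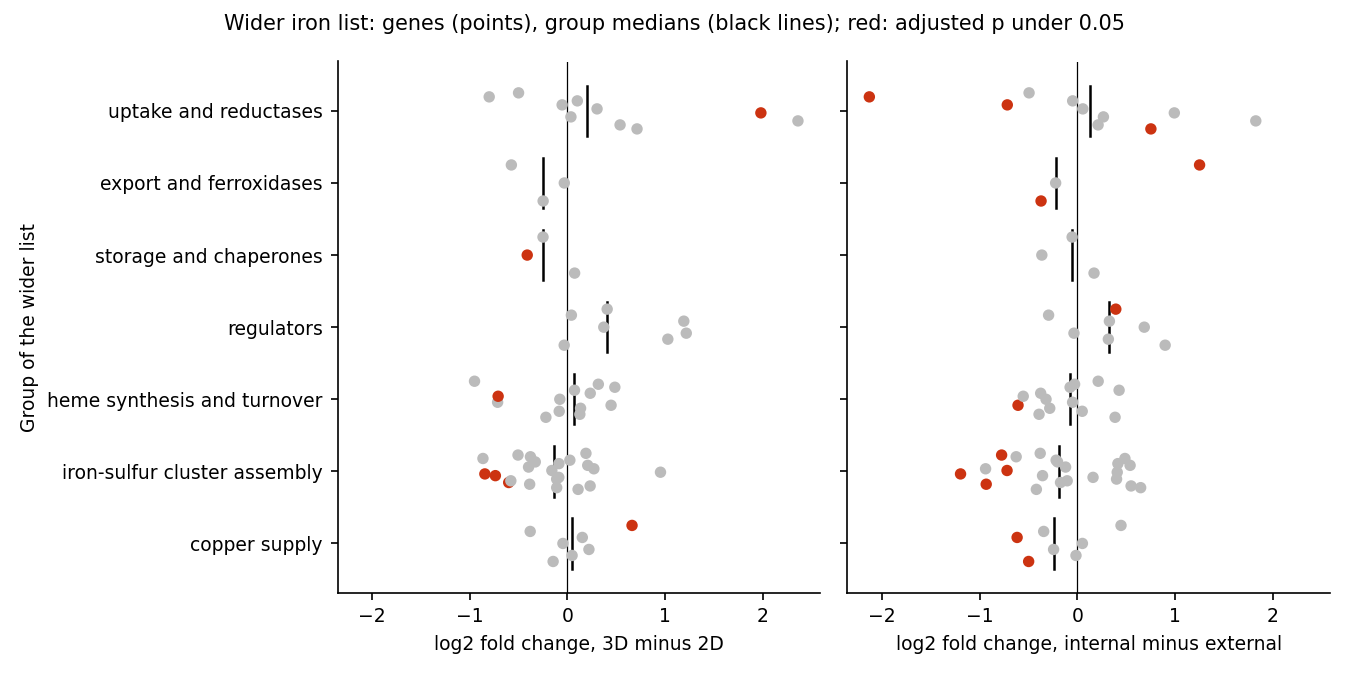
Log2 fold changes (horizontal axes) of the 65 measured genes of the wider list by group (vertical axis), for 3D minus 2D on the left and internal minus external on the right, with points for genes (red at an adjusted p under 0.05) and black lines for group medians. Most points lie near 0, and the group medians lie between -0.25 and 0.41.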

How the data were processed

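RNA from 15 samples of 21EM15 cells was measured by QuantSeq 3′ end sequencing. The authors trimmed the reads, kept sense reads, aligned them to GRCm38.p6 with STAR 2.7.8a and counted uniquely mapped reads with featureCounts 1.6.0. They deposited log2 CPM per sample, normalized separately for the cultures and the regions, after removing genes with low CPM. The annotation release is not given in the sources used here. The authors' own fold changes and p-values in the same files were not used.

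Differences of these log2 values were tested with limma (version 3.58.1, R 4.3.3) using moderated variances that follow a trend with expression. Tests were two-sided, and p-values were adjusted by Benjamini-Hochberg within each data set. A call needed an adjusted p below 0.01 and a change of more than 1 log2 unit. The deposited log2 values were converted back to whole reads for 100% of values, within 0.05 reads. The fit was tested on simulated data with known changes. Gene positions and transcript sequences come from GENCODE vM21 (GRCm38).

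The members and gene lists were chosen with earlier results of these data known. The rule for named genes took all members, the wider-list genes that were called and the 5 genes most like *Cp*, and other wider-list genes were named after their values were seen. Per the study's methods each replicate had its own dish or set of spheroids of this line. Whether these were started separately is not given in the sources used here, so p-values measure only the spread between these samples. Alternatives were other variance priors, thresholds, filters, scalings and pseudocounts, limma's voom, a replicate block and left-out samples. Some genes of the wider list are counted but not reported by name here.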

Additional observations from a re-analysis of the deposited data

Results flagged for a closer look

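Among the 30 groups of 4 samples examined over the 10 members, 2 held a sample far from the others by Dixon's test at its 95% level, and chance gives about 1 in 20. *Aco1* in the 2D replicate 2 was at 2.76 log2 CPM (48 reads), against 4.83 to 5.23 log2 CPM (240 to 355 reads) in the other 2D samples. *Cp* in the internal replicate 1 was at 8.43 log2 CPM, against 9.03 to 9.10 log2 CPM in the other internal samples.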

How the results depend on the processing

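Between the regions, 2 members were called as higher under each of 18 alternatives except the lack of a fold threshold, which gave 3 (*Cp* added, 0.77), and 0 were called as lower under all 18. In 3D, 1 member was called as higher with voom on recovered reads (*Slc40a1* lost, log2 fold change 5.52, adjusted p = 0.0171 from limma), and between 1 and 2 with a sample left out (*Cp* lost without the 3D replicate 3 or 4, with 3.69 and 3.82). The log2 fold change of *Cp* was between 3.17 and 4.21 with a sample left out in the cultures and between 0.61 and 0.93 in the regions. Members called as lower in 3D numbered 1 at an adjusted p of 0.05 (*Tfrc*), 2 without both samples numbered 2 (*Tfrc* and *Aco1*), and between 0 and 2 with a sample left out (2 without the 2D replicate 2). The cause was not tested.

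In the wider list, 1 gene was called as higher in 3D at an adjusted p of 0.05 (*Slc22a17*), between 0 and 1 with a sample left out (*Scara5* without the 2D replicate 2), and 1 as lower without a fold threshold (*Glrx5*). Higher in the internal region was 1 at an adjusted p of 0.05 (*Flvcr1*) and 1 without a fold threshold (*Lrp1*). Lower in the internal region were 0 without a variance trend, 2 at an adjusted p of 0.05, with a pseudocount of 5 or with voom (*Steap1* added), 3 without a fold threshold, and between 1 and 2 with a sample left out (*Steap1* without the internal replicate 3, *Ciapin1* without the external replicate 3).

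Directions turned in the regions for 4 members that were not called. With a sample left out, the log2 fold change was between -0.60 and 0.091 for *Ftl1*, between -0.40 and 0.47 for *Slc39a14*, between -0.21 and 0.30 for *Ireb2* and between -0.41 and 0.15 for *Aco1*. Quantile normalization gave -0.065 for *Slc39a14* and -0.018 for *Ireb2*, and leaving out both samples numbered 2 gave -0.23 for *Slc39a14*.

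Same-numbered samples deviated together with r = 0.23, 0.50, 0.07 and 0.01 in the cultures. There the highest r with a sample of another number was 0.17, -0.11, 0.19 and 0.099. The own number thus gave the higher r for the culture replicates 1 and 2 only. In the regions r was -0.04, -0.07 and -0.06, each below the highest with another number. The labels name no shared batch, so the numbers were not taken as pairs in the main fit. With a replicate block, 1 member was called as lower in 3D (*Tfrc*, limma adjusted p = 0.00766). The limma adjusted p in 3D was 0.00733 for *Ftl1*, 0.0182 for *Aco1* and 0.0467 for *Steap3*, which were not called. The culture tests of these members thus depend on whether the numbers mark pairs, which the labels do not say. The block also gave 2 wider-list genes as lower in the internal region, and region values of -0.40 for *Slc39a14*, -0.062 for *Ireb2* and 0.15 for *Aco1*. All calls went from 341 higher and 176 lower to 389 and 213 in the cultures, and from 370 and 491 to 256 and 399 in the regions.

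Recovered reads scaled by their totals, with another pseudocount, gave a median of all genes between the regions of 0.15 (pseudocount 0.5), 0.12 (pseudocount 5) and 0.14 (voom) in place of 0.04. The calls were 459 higher and 365 lower, 457 and 429, and 330 and 389, respectively, in place of 370 and 491. Scaling and pseudocount changed together here. All calls numbered 117 and 207 in the regions without a variance trend, and 112 and 49 in the cultures without the 3D replicate 3. Depth limited *Slc40a1* in 2D, with 9 reads or fewer.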
